A study of Mus musculus with 9 samples.

Results

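The genes described here are 50 cell cycle and DNA replication genes, taken by name from 41388 genes counted in the livers of DEN-treated mice. All 50 were found in the count tables, and 45 of them had enough reads to be tested, against 14741 genes in all. The livers came from male C57BL/6J mice that received diethylnitrosamine (DEN), a carcinogen that liver cells activate into a DNA-alkylating agent, at 25 mg/kg into the peritoneum at 14 days of age. The mice ate standard chow and were 6 months old when the liver was taken, and the labels do not say whether tumour nodules were part of the tissue. The livers were of 3 genotypes, with 3 libraries each: Fabp1 Mttp DKO (DKO), which lacks Fabp1, the fatty acid-binding protein of hepatocytes, in addition to Mttp; Mttp LKO (LKO), which lacks Mttp, the transfer protein that loads triglyceride onto apolipoprotein B for secretion; and Mttp f/f (Con), which carries the floxed Mttp allele. All mice received DEN, so no comparison here shows the effect of DEN itself. The driver of the deletions is not given in the sources used here. Each library held RNA pooled from 3 mice, which makes 9 libraries from 27 mice, and pools 1 to 3 below are the replicates of the labels, so the spread between libraries is that between pools, and no value belongs to a single mouse.

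Cells that divide switch on these genes in order. In G1, cyclin D and cyclin E with their kinases release E2F transcription factors from the retinoblastoma proteins, and E2F factors switch on the genes of DNA replication. The MCM helicase is loaded at replication origins during G1 and unwinds DNA in S phase. Genes of the mitotic kinases, the spindle and the centromere are held off in resting cells by the DREAM complex and switched on in G2 and mitosis by MuvB with B-MYB and FOXM1. Both act at CHR elements (cell cycle genes homology regions), often near CCAAT boxes bound by NF-Y. An adult liver holds few dividing cells, and DEN-induced tumours and regenerating liver hold more. Liver is also made of cells other than hepatocytes, so in these bulk libraries a larger number of dividing cells and more RNA per dividing cell cannot be told apart.

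The promoter sequences of 4 genes are shown: Mki67, Top2a and Cdk1 stand for the genes of mitosis and Mcm6 for those of replication, whose levels are set side by side below. Each window runs from 250 bases before to 50 bases after the start of transcription, from RefSeq on GRCm38.p6, 5′ to 3′ on the gene's own strand, which is the minus strand for all of them. The windows are chr7:135716330-135716629 for Mki67, chr11:99024140-99024439 for Top2a, chr10:69352863-69353162 for Cdk1 and chr1:128359656-128359955 for Mcm6. Capitals mark matches to an E2F site (TTTCCCGC, TTTGGCGC, TTTGCCGC or TTTCGCGC), a CHR element (TTTGAA) or a CCAAT box (CCAAT), read on both strands, so that ATTGG is a CCAAT box and TTCAAA a CHR element on the other strand.
Mki67: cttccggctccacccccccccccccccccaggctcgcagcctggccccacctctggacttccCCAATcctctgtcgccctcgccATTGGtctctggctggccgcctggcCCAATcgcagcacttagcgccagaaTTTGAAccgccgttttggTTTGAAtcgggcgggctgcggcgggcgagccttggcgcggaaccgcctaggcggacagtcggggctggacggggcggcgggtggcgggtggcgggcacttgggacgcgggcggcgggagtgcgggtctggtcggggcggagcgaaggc
Top2a: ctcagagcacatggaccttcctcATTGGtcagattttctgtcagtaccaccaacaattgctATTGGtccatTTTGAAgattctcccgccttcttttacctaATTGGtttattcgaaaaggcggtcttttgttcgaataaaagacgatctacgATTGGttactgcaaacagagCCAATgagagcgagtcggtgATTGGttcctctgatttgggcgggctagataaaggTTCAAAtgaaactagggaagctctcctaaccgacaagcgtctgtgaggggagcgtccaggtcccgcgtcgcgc
Cdk1: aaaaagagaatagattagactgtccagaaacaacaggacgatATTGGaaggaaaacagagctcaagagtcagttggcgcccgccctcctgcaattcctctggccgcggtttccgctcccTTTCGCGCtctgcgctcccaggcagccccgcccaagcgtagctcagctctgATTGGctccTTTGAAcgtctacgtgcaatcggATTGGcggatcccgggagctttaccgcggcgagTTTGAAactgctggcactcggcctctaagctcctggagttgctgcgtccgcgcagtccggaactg
Mcm6: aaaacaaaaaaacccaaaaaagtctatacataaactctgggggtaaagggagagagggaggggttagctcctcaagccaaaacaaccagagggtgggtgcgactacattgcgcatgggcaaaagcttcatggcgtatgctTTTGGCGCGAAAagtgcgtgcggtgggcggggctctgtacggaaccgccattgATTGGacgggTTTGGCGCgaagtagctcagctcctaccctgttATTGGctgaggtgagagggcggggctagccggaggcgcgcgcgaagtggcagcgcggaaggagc

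Among the 46 windows of the 42 genes that had one, 9 (19.6%) held an E2F site, against 2.26% of all 32851 windows. A CHR element was in 22 windows (47.8%), against 17.9% of all, and a CCAAT box in 37 (80.4%), against 37.4%. The E2F matches fell mainly in the replication genes: Cdc6, Cdt1, Mcm3, Mcm5, Mcm6 and Mcm7 held one, 6 of the 8 origin licensing genes with a window, as did Uhrf1, E2f7 and Cdk1. Mcm6 held 3 E2F matches, 2 of which overlap, and no CHR element. The CHR element lay in Mki67 and Top2a, in 5 of the 7 mitotic cyclin and kinase genes, in 4 of the 6 checkpoint genes, in 5 of the 6 spindle genes and in 2 of the 3 centromere genes. It was in 1 of the 4 G1/S genes (E2f8), in 1 of the 8 licensing genes (Mcm2) and in 0 of the 6 DNA synthesis genes. A match describes the letters and is not a measured binding site.

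Library totals ran from 23268389 to 23429588 counts in DKO, from 26362408 to 27918197 in LKO and from 24995426 to 27080442 in Con. As a check of the labels, Mttp read 5.79, 3.24 and 4.53 CPM (counts scaled to a common library size) in DKO and 9.78, 6.14 and 6.26 CPM in LKO, against 181, 79.9 and 69.4 CPM in Con. Fabp1 read 50.3, 67.5 and 78.0 CPM in DKO, against 3379 to 4984 CPM in LKO and 6060 to 6845 CPM in Con. One pool stood apart: LKO pool 3 had the highest level of the 9 pools in 36 of the 50 cell cycle genes and in 32 of the 45 tested, against 17.3% of all genes tested, and its marker levels are given below. For this reason the fold changes that rest on LKO pools are given with and without that pool. The summed CPM of 10 hepatocyte markers was 64828 to 96449 in DKO, 94114 to 107337 in LKO and 88886 to 100301 in Con. Alb was the largest part of each sum, at 35000 to 58200 CPM in DKO and 50700 to 61000 CPM in Con. The members were not all alike: Ttr was lower in DKO, at 6780 to 9350 CPM against 11400 to 12000 CPM in Con. Hnf4a read 646 to 864 CPM in DKO and 645 to 715 CPM in Con.

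Per length, most of the genes were expressed at a low level. In Con, mean RPKM (reads scaled to gene length and library size) ran from 17.1 for Mcm10, a replication initiation factor, down to 0.0145 for Bub1, a kinase of the spindle checkpoint. After Mcm10 came Tk1 at 7.06 RPKM, Gmnn at 4.84, Pcna at 3.03 and Mcm7 at 2.67, while Mki67 stood at 0.141 RPKM and Top2a at 0.0995. The Mcm10 value had an SD of 4.1 over the 3 Con pools and was the highest by a wide step, and the gene lies 7851 bases from Optn on the same strand, at a mean of 37.4 RPKM over the 9 pools. Whether reads from Optn transcripts enter the Mcm10 count was not tested. Reads were too few to test 5 of the genes. Cdc6, which helps load the helicase, had 7, 2 and 10 reads in DKO, 3, 7 and 15 in LKO, and 6, 5 and 2 in Con. Ccnb1, the main mitotic cyclin, had 8, 4 and 9 reads in DKO, 1, 3 and 11 in LKO, and 6, 2 and 2 in Con. The kinases Melk, Bub1 and Ttk had at most 7, 6 and 8 reads in any pool. Of these 5 genes, all but Bub1 had their highest level in LKO pool 3, on counts too small to set the groups apart.

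**Figure D1:**
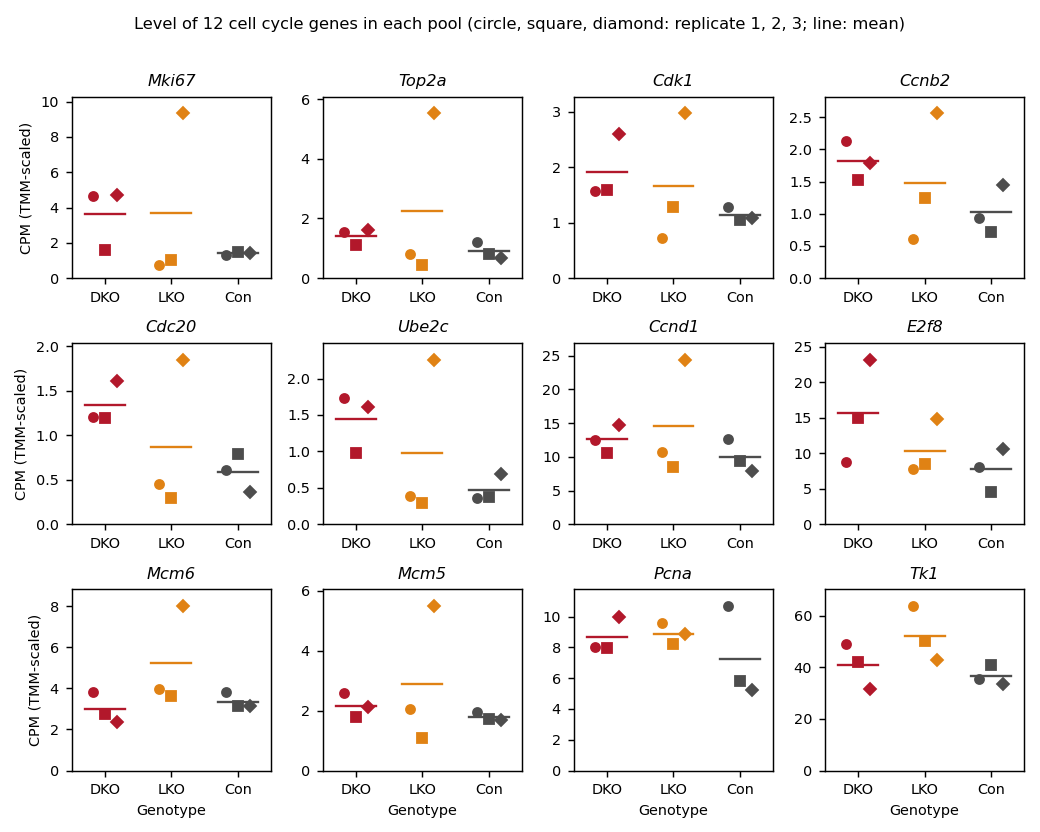
Level of 12 cell cycle genes in each pool, in CPM on TMM-scaled library sizes, with DKO, LKO and Con from left to right; each point is 1 pool (circle, square and diamond for replicates 1, 2 and 3) and each line the mean of 3 pools. LKO pool 3 stood at 9.34 CPM for Mki67 and 5.52 CPM for Top2a, above all other pools, whereas Pcna and Tk1 were not highest there.

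Within LKO, the pools differed most in the proliferation markers. Mki67 (ENSMUSG00000031004, chromosome 7, 135689788 to 135716379, minus strand, as in the deposited tables), whose protein Ki-67 coats mitotic chromosomes and marks cells in cycle, read 4.66, 1.58 and 4.7 CPM in DKO, 0.726, 1.03 and 9.34 CPM in LKO, and 1.33, 1.5 and 1.41 CPM in Con. The means were 3.65 ± 1.79 CPM in DKO, 3.7 ± 4.89 CPM in LKO and 1.42 ± 0.0855 CPM in Con (SD, n = 3 pools each). All 3 DKO pools lay above all 3 Con pools, by a narrow margin in DKO pool 2, and LKO had 2 pools below every Con pool and 1 far above. Top2a (ENSMUSG00000020914, chromosome 11, 98992943 to 99024189, minus strand), the topoisomerase that untangles replicated chromosomes, read 1.53, 1.11 and 1.61 CPM in DKO, 0.802, 0.441 and 5.52 CPM in LKO, and 1.21, 0.79 and 0.687 CPM in Con. LKO pool 3 was 8.88 times the mean of the other LKO pools for Top2a and 10.6 times for Mki67. By edgeR, Mki67 had a log2 fold change of 1.38 ± 0.81 (SE) in LKO against Con, with an adjusted p of 0.848, and of 1.36 ± 0.81 in DKO against Con, with an adjusted p of 0.581. Without LKO pool 3 its log2 fold change in LKO against Con turned to -0.69 ± 0.46.

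LKO pool 3 was also the highest pool for most genes of mitotic entry and of the checkpoint. Cdk1, the kinase that drives cells into mitosis, read 1.57, 1.58 and 2.6 CPM in DKO, 0.726, 1.29 and 2.97 CPM in LKO, and 1.29, 1.05 and 1.09 CPM in Con. Ccnb2, a B-type cyclin that partners it, read 2.13, 1.53 and 1.79 CPM in DKO, 0.611, 1.25 and 2.56 CPM in LKO, and 0.93, 0.715 and 1.45 CPM in Con. In both genes the 3 DKO pools were above the 3 Con pools, and LKO pool 3 was highest. Cdc20, which directs the anaphase-promoting complex (APC/C), read 1.21, 1.19 and 1.61 CPM in DKO, 0.458, 0.294 and 1.85 CPM in LKO, and 0.606, 0.79 and 0.362 CPM in Con. Ube2c (ENSMUSG00000001403, chromosome 2, 164769898 to 164778822, plus strand), the ubiquitin-conjugating enzyme of the same complex, read 1.73, 0.979 and 1.61 CPM in DKO, 0.382, 0.294 and 2.26 CPM in LKO, and 0.364, 0.376 and 0.687 CPM in Con. In both genes LKO pools 1 and 2 lay within or below the range of the Con pools.

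The other kinases and checkpoint genes differed among themselves. Aurkb, a kinase of the chromosome passenger complex, read 0.764, 0.383 and 0.493 CPM in DKO, 0.267, 0.0735 and 1.37 CPM in LKO, and 0.404, 0.188 and 0.434 CPM in Con. Plk1, a kinase of mitotic entry and spindle assembly, read 1.13, 0.894 and 1.57 CPM in DKO, 0.535, 1.07 and 1.85 CPM in LKO, and 0.364, 0.94 and 0.579 CPM in Con. Both were highest in LKO pool 3, but the DKO and Con pools overlapped. Aurka, the kinase of centrosome maturation, differed: DKO pool 2 was the highest, with 3.13, 5.07 and 3.23 CPM in DKO, 2.71, 2.32 and 3.15 CPM in LKO, and 2.06, 2.86 and 2.53 CPM in Con. Bub1b, the checkpoint kinase BubR1, read 0.723, 0.937 and 0.717 CPM in DKO, 0.649, 0.368 and 1.93 CPM in LKO, and 0.647, 0.489 and 0.398 CPM in Con. Birc5, survivin, a partner of Aurkb, read 3.13, 3.62 and 2.33 CPM in DKO, 3.17, 2.46 and 5.41 CPM in LKO, and 3.15, 3.84 and 2.71 CPM in Con. Bub1b was above Con in each DKO pool, whereas Birc5 overlapped and had only LKO pool 3 apart.

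Among the spindle genes, LKO pool 3 was highest in all but Kif20a. Tpx2, which activates Aurka on spindle microtubules, read 1.04, 0.724 and 0.986 CPM in DKO, 0.306, 0.404 and 1.93 CPM in LKO, and 0.202, 0.489 and 0.543 CPM in Con. Kif23, a kinesin of the central spindle, read 0.643, 0.894 and 0.582 CPM in DKO, 0.191, 0.404 and 1.41 CPM in LKO, and 0.485, 0.226 and 0.398 CPM in Con. Hmmr, a spindle-associated hyaluronan receptor, read 0.844, 0.426 and 0.627 CPM in DKO, 0.267, 0.0735 and 1.11 CPM in LKO, and 0.162, 0.376 and 0.0362 CPM in Con. The DKO pools were above the Con pools in each of these, and pool 3 of LKO was above all DKO pools. Kif11, the motor that pushes spindle poles apart, read 0.764, 0.894 and 1.08 CPM in DKO, 0.764, 0.735 and 1.56 CPM in LKO, and 0.808, 0.639 and 0.687 CPM in Con. Kif20a, a kinesin of cytokinesis, read 1.53, 0.553 and 1.12 CPM in DKO, 0.649, 0.735 and 0.927 CPM in LKO, and 0.445, 0.903 and 0.506 CPM in Con. Prc1, which bundles the microtubules of the central spindle, read 2.01, 1.06 and 1.57 CPM in DKO, 1.3, 1.43 and 2.3 CPM in LKO, and 1.05, 1.13 and 1.27 CPM in Con. These overlapped between DKO and Con, as did Nusap1, a microtubule-binding protein, at 0.766 to 0.924 CPM in DKO, 0.515 to 1.74 CPM in LKO and 0.796 to 1.43 CPM in Con.

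Ect2, the exchange factor that places the cleavage furrow, read 0.201, 0.213 and 0.627 CPM in DKO, 0.802, 0.551 and 1.22 CPM in LKO, and 0.566, 0.414 and 0.362 CPM in Con. Its DKO and Con pools overlapped, with 2 DKO pools below and 1 above all Con pools. At the centromere, Cenpa, the histone H3 variant, read 5.22, 5.62 and 4.79 CPM in DKO, 3.93, 2.83 and 6.75 CPM in LKO, and 4.65, 4.85 and 4.23 CPM in Con. Cenpe, a kinesin of the kinetochore, read 0.643, 0.341 and 1.03 CPM in DKO, 0.267, 0.294 and 1.19 CPM in LKO, and 0.445, 0.451 and 0.253 CPM in Con. Cenpf, a kinetochore protein, read 1.33, 0.426 and 0.896 CPM in DKO, 0.382, 0.441 and 1.67 CPM in LKO, and 0.243, 0.677 and 0.289 CPM in Con. In both, DKO pool 2 lay among the Con pools and the other DKO pools above them.

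Among the replication genes, the DKO and Con pools overlapped in all but Tyms. Mcm6 (ENSMUSG00000026355, chromosome 1, 128331590 to 128359664, minus strand), a helicase subunit, read 3.82, 2.77 and 2.37 CPM in DKO, 3.97, 3.64 and 8.01 CPM in LKO, and 3.8, 3.12 and 3.15 CPM in Con. Mcm5, another subunit, read 2.57, 1.79 and 2.11 CPM in DKO, 2.06, 1.07 and 5.49 CPM in LKO, and 1.94, 1.73 and 1.7 CPM in Con. LKO pool 3 was highest in Mcm2, Mcm3, Mcm4, Mcm5 and Mcm6, and in none of Mcm7, Mcm10, Cdt1 and Gmnn. Mcm2 read 3.82, 2.55 and 3.32 CPM in DKO, 3.36, 2.21 and 5.78 CPM in LKO, and 2.47, 3.24 and 2.75 CPM in Con. Mcm3 read 3.54, 4.0 and 3.27 CPM in DKO, 3.71, 3.68 and 7.01 CPM in LKO, and 4.04, 3.91 and 3.11 CPM in Con. Mcm4 was nearer to even, at 1.87 to 3.7 CPM in DKO, 2.65 to 3.97 CPM in LKO and 2.3 to 2.9 CPM in Con, and so was Mcm7, at 9.45 to 13.4 CPM in DKO, 10.8 to 12.7 CPM in LKO and 9.82 to 12.8 CPM in Con. All these subunits form one helicase, yet its subunits were not even in LKO pool 3: Mcm5 was 3.51 times the mean of LKO pools 1 and 2, and Mcm7 1.15 times. Exons of Mcm7 overlap those of Cops6, a gene on the opposite strand at a mean of 38.1 RPKM over the 9 pools. Whether reads of Cops6 enter the Mcm7 count was not tested. Cdt1, which loads the helicase, had its highest level in DKO pool 3, at 9.27 CPM, beside 3.78 and 4.64 CPM in the other DKO pools, 4.08 to 5.77 CPM in LKO and 4.7 to 5.24 CPM in Con. Gmnn, geminin, which blocks Cdt1, read 5.43 to 7.49 CPM in DKO, 6.54 to 6.67 CPM in LKO and 6.92 to 7.28 CPM in Con, with all LKO pools below all Con pools. Mcm10 read 77.7 to 124 CPM in DKO, 93.5 to 137 CPM in LKO and 109 to 170.0 CPM in Con, highest in Con pool 1. Pcna, the sliding clamp of DNA polymerase, read 8.0, 7.96 and 10.0 CPM in DKO, 9.59, 8.2 and 8.86 CPM in LKO, and 10.7, 5.83 and 5.24 CPM in Con. Its highest pool was Con pool 1.

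Among the enzymes of nucleotide supply, Tk1 (ENSMUSG00000025574, chromosome 11, 117815526 to 117826092, minus strand), thymidine kinase, was not highest in LKO pool 3. It read 48.9, 42.0 and 31.6 CPM in DKO, 63.8, 50 and 42.9 CPM in LKO, and 35.4, 41.0 and 33.5 CPM in Con, with LKO pool 3 the lowest of the LKO pools and all LKO pools above all Con pools. Tyms, thymidylate synthase, was below Con in each DKO pool, at 6.63, 6.85 and 6.63 CPM in DKO, 6.42, 5.84 and 8.38 CPM in LKO, and 7.4, 7.37 and 7.38 CPM in Con. Rrm1 and Rrm2, the subunits of ribonucleotide reductase, overlapped between DKO and Con. Rrm1 read 4.09 to 7.8 CPM in DKO, 5.77 to 8.34 CPM in LKO and 4.93 to 7.03 CPM in Con. Rrm2 read 7.03, 4.64 and 7.44 CPM in DKO, 6.68, 9.45 and 9.64 CPM in LKO, and 5.3, 7.49 and 7.85 CPM in Con. Uhrf1, which keeps DNA methylation through replication, read 0.402, 0.468 and 0.493 CPM in DKO, 0.573, 0.294 and 1.85 CPM in LKO, and 0.323, 0.376 and 0.47 CPM in Con, with LKO pool 3 alone set apart.

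In G1, Ccnd1, cyclin D1, read 12.5, 10.6 and 14.7 CPM in DKO, 10.7, 8.42 and 24.4 CPM in LKO, and 12.6, 9.44 and 7.92 CPM in Con. Its level was set apart in LKO pool 3 alone. E2f8, an atypical repressor of the E2F family known for polyploid hepatocytes, read 8.8, 15.0 and 23.2 CPM in DKO, 7.83, 8.45 and 14.8 CPM in LKO, and 8.13, 4.55 and 10.6 CPM in Con. Its highest pool was DKO pool 3, and the DKO and Con pools overlapped. E2f1, the activating family member, read 6.39, 5.88 and 5.65 CPM in DKO, 7.6, 6.36 and 7.6 CPM in LKO, and 6.35, 5.53 and 6.04 CPM in Con, so all LKO pools were above all Con pools, narrowly in LKO pool 2. Ccne1 and Ccne2, the E-type cyclins that start S phase, and E2f7, a repressor related to E2f8, overlapped in all 3 comparisons. Ccne1 read 2.64 to 3.94 CPM in DKO, 2.44 to 3.93 CPM in LKO and 2.03 to 4.41 CPM in Con, and Ccne2 3.58 to 4.68 CPM in DKO, 2.79 to 4.26 CPM in LKO and 2.18 to 3.76 CPM in Con. E2f7 was highest in LKO pool 2, at 3.53 CPM, and read 1.48 CPM in LKO pool 3.

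**Figure D2:**
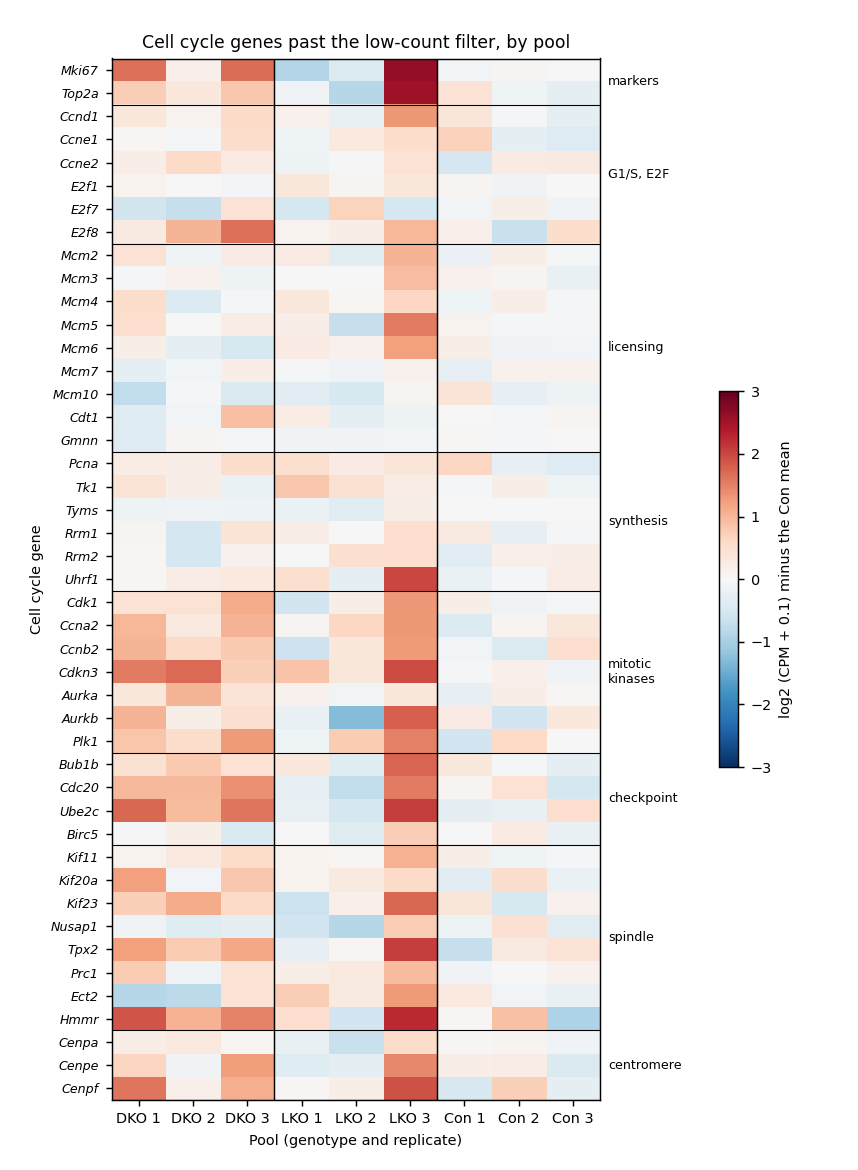
The 45 tested genes (rows, in groups by role) in each of the 9 pools (columns, DKO left, LKO centre, Con right), as log2 (CPM + 0.1) minus the mean of the Con pools; red is above the Con mean and blue below. The LKO pool 3 column is red in most rows, above all for the proliferation markers and then the checkpoint, centromere and mitotic groups, and the licensing and synthesis rows of DKO are mostly near 0.

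The question of how far a single pool carries the LKO difference was addressed first by ratios within LKO. Over the 45 tested genes, LKO pool 3 had a median level of 1.99 times the mean of LKO pools 1 and 2, from 0.591 to 10.6, and 22 of them (48.9%) were at 2 times or above. Over all tested genes the median ratio was 0.992 and 6.71% were at 2 times or above. By role, the median ratio was 9.74 for the proliferation markers, 4.36 for checkpoint genes, 4.05 for centromere genes, 2.75 for mitotic cyclins and kinases, 2.54 for spindle genes, 1.41 for G1/S genes, 1.4 for licensing genes and 1.27 for DNA synthesis genes. The pool medians showed it in another form: relative to the Con mean, the median log2 level of the 45 genes was 0.35, 0.16 and 0.44 in DKO, 0.015, -0.012 and 1.02 in LKO, and 0.0028, -0.0019 and -0.059 in Con. The SD of the pool medians was 0.14 in DKO, 0.59 in LKO and 0.035 in Con.

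**Figure D3:**
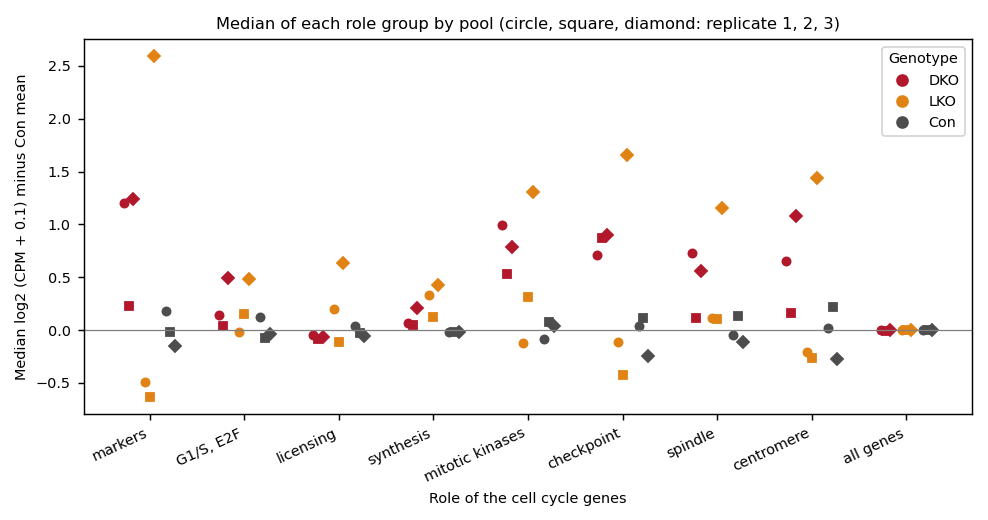
Median over the genes of each role, per pool, of log2 (CPM + 0.1) minus the Con mean, with DKO, LKO and Con side by side and the same for all tested genes at the right; circle, square and diamond are replicates 1, 2 and 3. In DKO the mitotic and checkpoint medians lay between 0.53 and 0.99 in all 3 pools and the licensing medians between -0.085 and -0.05, and LKO pool 3 lay above the other LKO pools in every role.

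In LKO against Con, 37 of the 45 genes had a positive and 8 a negative fold change, with a median log2 fold change of 0.51 beside 0.011 over all genes. None passed the adjusted threshold of 0.05 in edgeR's quasi-likelihood test, where 0.346% of all genes did, and the smallest adjusted p was 0.521. The edgeR unadjusted p was under 0.05 for 2 of them (Tk1 and Cdkn3), against 6.97% of all genes. DESeq2 and limma-voom called 0 after adjustment. DESeq2, run without the low-count filter, had 3 of all 50 genes at an unadjusted p under 0.05, against 4.44% of all genes. For limma-voom it was 1 of the 45, against 6.89%. The 50 genes of the DESeq2 run include Mki67, to which DESeq2 gave no adjusted p in any comparison. All LKO pools were above all Con pools in 4 genes (E2f1, Tk1, Cdkn3 and Prc1), where 7.27% of all genes were, and below in 1 (Gmnn), where 6.99% were. Tk1 had a log2 fold change of 0.51 ± 0.18 (SE), with an edgeR adjusted p of 0.521, and of 0.63 ± 0.18 without LKO pool 3. Cdkn3, a phosphatase that acts on CDK kinases, read 0.306, 0.184 and 0.778 CPM in LKO and 0.121, 0.15 and 0.109 CPM in Con, a log2 fold change of 1.7 ± 0.63 with an edgeR adjusted p of 0.578. Its estimate was 0.91 ± 0.6 without LKO pool 3.

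The next smallest p in LKO against Con belonged to Mcm6 at a log2 fold change of 0.63 ± 0.31, Uhrf1 at 1.2 ± 0.58, Ect2 at 0.94 ± 0.47 and Ccna2, the cyclin of S and G2 phase, at 0.78 ± 0.39. Their edgeR adjusted p-values were 0.747 to 0.777. Without LKO pool 3 these estimates were 0.18 ± 0.24 for Mcm6, 0.13 ± 0.43 for Uhrf1, 0.59 ± 0.49 for Ect2 and 0.37 ± 0.38 for Ccna2, so that pool carried most of the Mcm6 and Uhrf1 differences. Ccnd1 had a log2 fold change of 0.54 ± 0.34 with an adjusted p of 0.874 by edgeR, and -0.067 ± 0.22 without LKO pool 3. Without that pool the median over the 45 genes was -0.011, with 20 genes higher and 25 lower, and 2 had an unadjusted p under 0.05, where 7.57% of all genes did. Without LKO pool 1 instead, the median was 0.69 and 11 of 46 tested genes had an unadjusted p under 0.05, against 9.87% of all genes. Without LKO pool 2 these were 0.67 and 13 of 46, against 6.02% of all genes. None passed after adjustment in any of these.

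**Figure D4:**
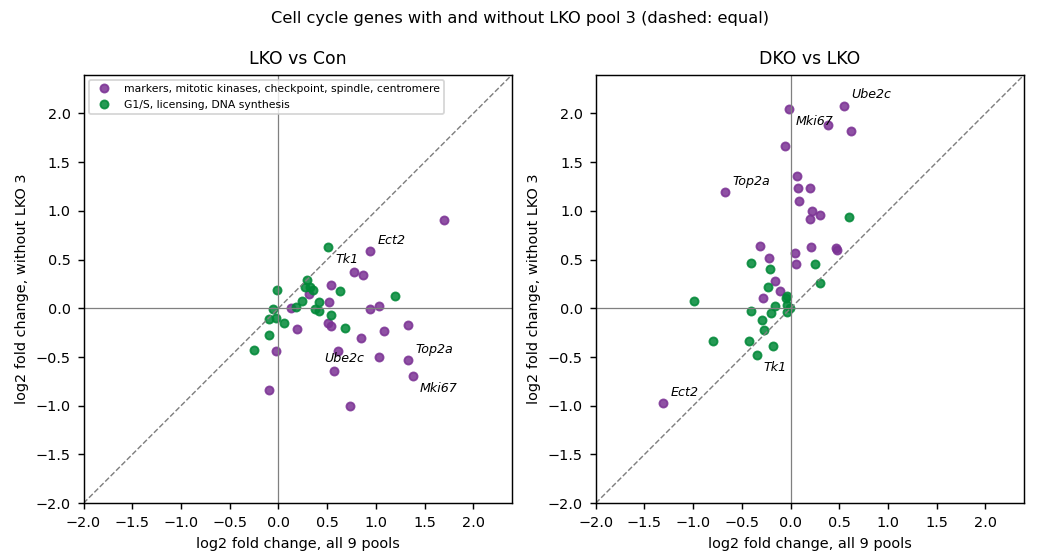
Log2 fold changes of the 45 tested genes with all 9 pools (x axis) and without LKO pool 3 (y axis), for LKO against Con at the left and DKO against LKO at the right; purple points are mitotic groups and proliferation markers, green points G1/S, licensing and synthesis genes, and the dashed line marks equal values. Mki67 is at -0.69 without that pool and 1.38 with it in LKO against Con, and at 2.05 without it and -0.021 with it in DKO against LKO.

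In DKO against LKO, the median log2 fold change of the 45 genes was -0.042 beside -0.0164 over all genes, with 18 genes higher and 27 lower. None passed the adjusted threshold, where 0.4% of all genes did, and the smallest edgeR adjusted p was 0.445. At an unadjusted p under 0.05 there were 2, both lower in DKO, against 9.1% of all genes. DESeq2 and limma-voom each called 0 and had 2 at that level. For DESeq2 that was 2 of all 50, against 5.63% of all genes, and for limma-voom 2 of the 45, against 8.95%. Ect2 had a log2 fold change of -1.31 ± 0.49 and Mcm6 of -0.8 ± 0.31, with edgeR adjusted p-values of 0.445 and 0.472. Without LKO pool 3 these were -0.97 ± 0.51 for Ect2 and -0.34 ± 0.24 for Mcm6, and neither had an unadjusted p under 0.05. No gene had all DKO pools above all LKO pools or all below, where 5.67% and 5.83% of all genes did. The next genes by p were Tk1 at -0.35 ± 0.18, Aurka at 0.48 ± 0.25, Rrm2 at -0.43 ± 0.23 and E2f1 at -0.27 ± 0.15, with edgeR adjusted p-values of 0.594 to 0.633. Without LKO pool 3 they stood at -0.48 ± 0.18 for Tk1, 0.6 ± 0.27 for Aurka, -0.34 ± 0.25 for Rrm2 and -0.22 ± 0.17 for E2f1. Mki67 stood at -0.021 ± 0.77 and Ccnd1 at -0.21 ± 0.34, with adjusted p-values of 0.999 and 0.897 by edgeR, and at 2.05 ± 0.45 and 0.4 ± 0.22 without LKO pool 3.

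Without LKO pool 3, DKO was higher than the remaining LKO pools in 34 of the 45 genes and lower in 11, with a median log2 fold change of 0.45 and the smallest edgeR adjusted p at 0.089, for Ube2c. No gene passed. At an unadjusted p under 0.05 there were 14 genes, against 10.0% of all genes, and 13 of them were higher in DKO: Ube2c, Mki67, Cdc20, Cenpa, Top2a, Tpx2, Aurkb, Cdk1, Hmmr, Kif23, Ccnb2, E2f8 and Cenpe. The 14th, Tk1, was lower. By role the medians were 1.62 for the markers, 1.23 for checkpoint, 1.1 for centromere, 0.92 for mitotic cyclins and kinases and 0.57 for spindle genes, against 0.25 for G1/S, 0.021 for licensing and -0.041 for DNA synthesis. These values set 3 DKO pools against 2 LKO pools, and the pool left out was singled out with its values known.

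In DKO against Con, 34 of the 45 genes were higher and 11 lower, with a median log2 fold change of 0.31 beside -0.00186 over all genes. None passed the adjusted threshold of edgeR, where 0.332% of all genes did, and the smallest adjusted p was 0.29. The edgeR unadjusted p was under 0.05 for 4 of them (Cdkn3, E2f8, Aurka and Ube2c), against 11.2% of all genes. DESeq2 called 0 and had 4 of all 50 at that level, against 6.55% of all genes. For limma-voom it was 0 called and 6 of the 45, against 11.2%. The pools of DKO and Con separated in more of the genes than these p-values did. All DKO pools lay above all Con pools in 11 of the 45 (24.4%), where 8.95% of all genes did, and below in 1 (Tyms), where 9.18% did. The 11 were Mki67, Cdk1, Ccnb2, Cdkn3, Aurka, Bub1b, Cdc20, Ube2c, Kif23, Tpx2 and Hmmr. None of these is a replication gene by the role lists. Bub1, untested, did so too, with 6, 2 and 2 reads in DKO and 1, 2 and 2 in Con before scaling. The margin was narrow in some of the 11. The lowest DKO and highest Con pool read 1.58 and 1.5 CPM for Mki67 and 1.53 and 1.45 CPM for Ccnb2. They read 0.717 and 0.647 CPM for Bub1b (16 reads each) and 0.426 and 0.376 CPM for Hmmr (10 reads each). In others it was wider, as for Cdc20 at 1.19 and 0.79 CPM. All 11 were read in the same pools, so they are not separate observations.

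Cdkn3 read 0.563, 0.639 and 0.269 CPM in DKO against 0.121, 0.15 and 0.109 CPM in Con, and had a log2 fold change of 1.92 ± 0.63, with an edgeR adjusted p of 0.29 on 6 to 15 reads per DKO pool and 3 or 4 per Con pool. E2f8 had 1.01 ± 0.38, Aurka 0.61 ± 0.25 and Ube2c 1.58 ± 0.69, with edgeR adjusted p-values of 0.362, 0.39 and 0.42. Ccna2, at 1.65, 0.979 and 1.7 CPM in DKO and 0.566, 0.828 and 1.01 CPM in Con, had 0.84 ± 0.4 and Cdc20 had 1.18 ± 0.59, with edgeR adjusted p-values of 0.461 and 0.494. Ccnd1 had 0.33 ± 0.34 with an edgeR adjusted p of 0.779. By role, the median log2 fold change was 1.01 for the markers, 0.91 for checkpoint, 0.81 for mitotic cyclins and kinases, 0.8 for centromere and 0.61 for spindle genes, against 0.22 for G1/S, 0.095 for DNA synthesis and -0.032 for licensing genes. LKO pool 3 enters this comparison only through the shared scaling, filter and estimate of spread. Without it these medians were within 0.01 of the values above, and 14 genes, all higher in DKO, had an unadjusted p under 0.05, against 12.3% of all genes. The smallest edgeR adjusted p there was 0.0973. Without Con pool 1 the median over the tested genes was 0.52.

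Markers of other cells were also high in LKO pool 3. Its summed CPM of 10 B and plasma cell markers was 650, against 26.4 to 55.4 CPM in the other 8 pools, and all 10 were highest there. Ms4a1, a B cell marker, was at 0 in LKO pool 1 and no list had a marker at 0 in every pool. Of 10 stellate and fibroblast markers 9 were highest in LKO pool 3, with 442 CPM in sum against 210 to 297 CPM in the others. Of 10 T and NK cell markers 7 were, with 18.6 CPM in sum against 3.67 to 7.45 CPM. The rest of that list, Gzma, Klrb1c and Ncr1, read 0.222, 0 and 0.0741 CPM in LKO pool 3. In Con they read 0.145 to 0.263, 0.217 to 0.376 and 0.0808 to 0.15 CPM. So Gzma, Klrb1c and Ncr1 were not raised in LKO pool 3, on 6, 0 and 2 reads. Nkg7 of the same list was highest in that pool, at 2.59 CPM against 0.224 to 1.09 CPM in the others. The liver tumour and fetal liver list summed to 131 to 156 CPM in DKO, 49.9, 95.1 and 172 CPM in LKO, and 25.7 to 47.3 CPM in Con. This sum was above Con in every DKO and every LKO pool, narrowly in LKO pool 1. Its members were not all alike: Golm1 read 2.98 and 2.76 CPM in LKO pools 1 and 2, against 3.99 to 4.33 CPM in Con. Bile duct and progenitor markers summed to 102 to 135 CPM in DKO, 113 to 172 CPM in LKO and 90.2 to 98.8 CPM in Con, and the stellate and fibroblast markers to 241 to 297 CPM in DKO, 241 to 442 CPM in LKO and 210 to 235 CPM in Con, so both were above Con in every DKO and every LKO pool too. The macrophage list summed to 127, 142 and 63 CPM in DKO, 37.7, 46.9 and 109 CPM in LKO, and 92.2 to 128 CPM in Con. Here LKO pools 1 and 2 and DKO pool 3 were below every Con pool, and LKO pool 3 was within the Con range. Erythroid, endothelial and neutrophil markers were not highest in LKO pool 3 as sums. The part of these cells in the levels of the cell cycle genes was not tested.

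**Figure D5:**
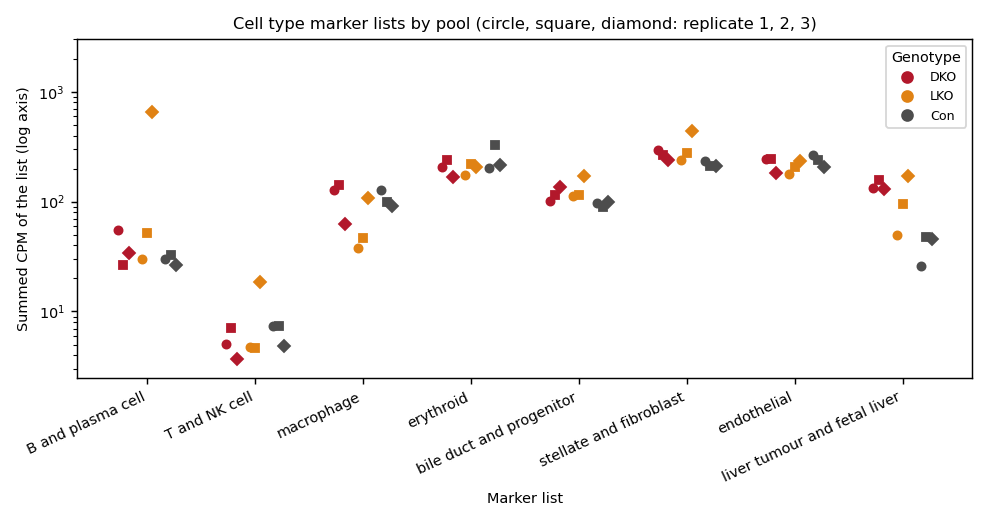
Summed CPM (log axis) of 8 marker lists in the 9 pools, with DKO, LKO and Con side by side and circle, square and diamond for replicates 1, 2 and 3. Each list holds 10 genes, except that 9 of the 10 erythroid markers were found and summed. LKO pool 3 stands at 650 CPM for B and plasma cell markers, and the tumour and fetal liver list is at 131 to 156 CPM in DKO against 25.7 to 47.3 CPM in Con.

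Genes of the same pathway beyond the 50 gave no call either. Of 79 other proliferation genes, 57 were tested and 0 were called in each comparison by edgeR, with medians of 0.22 in LKO against Con, -0.044 in DKO against LKO and 0.21 in DKO against Con. The edgeR unadjusted p was under 0.05 for 3, 0 and 4 of these 57, against 6.97%, 9.1% and 11.2% of all genes. Without LKO pool 3 the medians were -0.15, 0.23 and 0.2. Smc2, a condensin subunit, read 2.18, 2.06 and 3.37 CPM in LKO and 1.21, 1.69 and 1.56 CPM in Con, and Kif22, a chromokinesin, read 1.61, 1.36 and 1.25 CPM in DKO and 0.606, 0.903 and 0.615 CPM in Con. The edgeR adjusted p-values were 0.491 and 0.326. The groups separated in both, but both genes were named for their small p, so the separation is no separate result. Of all genes, 7.27% had all LKO pools above all Con pools and 8.95% all DKO pools above all Con pools. Among the brakes of the cycle, of 10 CDK inhibitors and pocket proteins, 0 were called, with medians of 0.23, -0.11 and 0.14 in the same order. Cdkn2d, an inhibitor of the cyclin D kinases, read 3.7, 4.22 and 4.75 CPM in DKO and 3.15, 3.2 and 2.71 CPM in Con, with an edgeR adjusted p of 0.347. Of 17 G1 kinases, D cyclins and their partners 0 were called, with medians of -0.032, 0.083 and -0.016.

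Exons of 10 of the 50 genes overlap a gene with reads on the opposite strand, among them Ccnd1, E2f8, Mcm7, Tk1, Ccna2 and Cdc20. The strand setting of the counting is not given in the sources used here. As means over the 9 pools, E2f8 had 2.06 RPKM against 11.0 RPKM for its partner Gm2788. Cdc20 had 0.5 RPKM against 23.1 RPKM for Elovl1, and Tk1 8.31 RPKM against 14.1 RPKM for Afmid. By contrast Tnnc2, the partner of Ube2c, had a mean of 0.111 reads. Whether reads of the partners enter these counts was not tested. Leaving out all 10 gave medians of 0.52, -0.058 and 0.26 in the order above.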

How the data were processed

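Polyadenylated liver RNA was sequenced in 9 pooled libraries, as described above. The deposited tables hold counts per gene as whole numbers, with CPM and RPKM computed from them by the authors; recomputing both gave differences of at most 5.1e-11 CPM and 7.5e-11 RPKM. Per the submitters' processing notes the tools included STAR 2.0.4b, Subread and featureCounts 1.4.5. Neither genome build nor strand setting is given in the sources used here. Coordinates of 35 of the 50 genes matched GENCODE M21 (GRCm38) exactly. Of the identifiers, 97.26% matched a symbol.

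Counts were tested with edgeR 4.0.16 (R 4.3.3): filterByExpr with a minimum count of 10, TMM scaling, 1 quasi-likelihood fit of 3 genotype means over 9 libraries, and Benjamini-Hochberg adjustment over 14741 genes, threshold 0.05. The biological coefficient of variation was 18.3%. The SE is the log2 fold change divided by the root of F. Printed CPM are on TMM-scaled library sizes, and RPKM are as deposited. P-values weigh the difference between genotypes against the spread between pools. The script was tested on simulated data. Every pair of replicates differed by more than sampling noise (chi-square of 20.8 to 67.5 for each degree of freedom).

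The genes, lists and tests were chosen with earlier results of these data known. Fold changes with SE and adjusted p are printed for the 6 tested genes with the smallest p per comparison, Mki67 and Ccnd1, by the rule for named genes; others named by their fold or p were chosen after their values were seen. Up to 2 genes of each other list are named by the same rule. Alternatives were RLE and upper quartile scaling, no filter or CPM of at least 1 in 3 libraries, DESeq2 1.42.0, limma-voom (limma 3.58.1), the 6 compared libraries, a replicate block, and leaving out each library; leaving out overlapping genes was added after seeing the data.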

Additional observations from a re-analysis of the deposited data

How the results depend on the processing

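No cell cycle gene was called after adjustment in any of the 3 comparisons under any alternative run. The smallest adjusted p over all of them was 0.089 (edgeR without LKO replicate 3, DKO against LKO). DESeq2 gave Mki67 no adjusted p in any comparison, so that run could not call it. Mki67 in DKO against LKO had a log2 fold change of -0.021 with all libraries and turned to 0.75 with limma-voom and 0.46 with the replicate block, and ranged from -0.49 to 2.05 when single libraries were left out, with 0.35 without DKO replicate 2. Leaving out single libraries gave -0.69 to 1.87 for Mki67 in LKO against Con, -0.067 to 0.82 for Ccnd1 in LKO against Con and -0.47 to 0.4 for Ccnd1 in DKO against LKO, with the sign turned in each by leaving out LKO replicate 3. Over the same left-out libraries, the median of the tested genes ranged from -0.011 to 0.69 in LKO against Con, from -0.22 to 0.45 in DKO against LKO and from 0.28 to 0.52 in DKO against Con. In DKO against Con it was 0.22 with CPM of at least 1 in at least 3 libraries and 0.26 without the genes whose exons overlap another gene.

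Over all genes, the calls numbered 51 in LKO against Con, 166 with DESeq2, 171 with no low-count filter and 14 to 54 without single libraries. In DKO against LKO they numbered 59, then 206, 180, 34 with the 6 compared libraries only and 22 to 73. In DKO against Con they numbered 49, then 256, 201, 78 and 15 to 100. The cause was not tested. Replicate numbers do not pair the pools: same-numbered pools had correlations of deviations from -0.244 to 0.0721. The replicate block gave medians of 0.37 in LKO against Con, -0.026 in DKO against LKO and 0.3 in DKO against Con, with 35, 43 and 40 of all genes called and 0 of the cell cycle genes.

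Low counts limit the mitotic genes, many of which had under 50 reads in a pool, and 3 pools per genotype limit every comparison. A p that misses the threshold does not show that levels were equal.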
